A study of Mus musculus with 2 samples.

Results

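The fibroblasts were 148 of the 15930 cells in a table of single hippocampal cells from mice. They were chosen by measured values: a cell was taken when at least 3 of 8 genes (Dcn, Col1a2, Col3a1, Col1a1, Slc6a13, Lum, Igf2 and Col6a2) stood at a value of 2 or more in it, and both the choroid plexus gene Folr1 and the endothelial gene Cldn5 stood below 2. The levels of these 10 genes in the chosen cells are therefore a description and not a finding. The wild-type library held 7094 cells of wild-type mice, and the knock-in library held 8836 cells of mice homozygous for Pigv341E, an engineered allele of Pigv, which encodes a mannosyltransferase of glycosylphosphatidylinositol (GPI) anchor synthesis. All mice were of strain C57Bl.6/J, and their age was not analysed here. Each library pooled both hippocampi of 4 mice, 8 hippocampi in all, after mechanical dissociation in the cold, and both were run on the same sequencing lane. With 1 pooled library per genotype there was no replicate. The spread between mice is unknown, no difference between the libraries was tested, and an effect of genotype cannot be told apart from one of library.

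Fibroblasts of the brain lie in the meninges, the layered membranes around the brain, along the larger vessels that enter it, and in the stroma of the choroid plexus. They secrete fibrillar collagens, basement membrane proteins and small proteoglycans, carry transporters that move amino acids, GABA and organic anions across the brain's borders, and release retinoic acid and bone morphogenetic proteins. Meningeal fibroblasts of the pia, arachnoid and dura differ in the transporters and matrix genes they express. Pia and folds of meninges border the hippocampus.

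The rule genes present in the most members were Slc6a13, a GABA and taurine transporter, Dcn, a small leucine-rich proteoglycan that binds collagen fibrils, and Col1a2, a chain of type I collagen. In the wild-type library Slc6a13 stood at 2 or more in 36 of the 48 fibroblasts, Dcn in 35 and Col1a2 in 40. In the knock-in library the counts were 87, 71 and 77 of 100 fibroblasts. In cells with 3 or more neuronal markers, Slc6a13 stood at 2 or more in 0.366% of wild-type and 0.693% of knock-in cells, and Col1a2 in 0.237% and 0.338%. Dcn reached 2 in 2.46% of wild-type and 3.79% of knock-in cells with neuronal markers, the highest shares of the 3 genes. In all cells outside the rule, which include these, Dcn reached 2 in 2.23% and 3.55%. Dcn was thus no rarer in cells with neuronal markers than in the rest. Col1a1, the other chain of type I collagen, also reached 2 in most fibroblasts, 27 and 53, and Col3a1, the chain of type III collagen, in 19 and 27. Lum, a proteoglycan of collagen fibrils, was found at that value in 9 and 8 fibroblasts, Igf2, a growth factor of the insulin family, in 3 and 16, and Col6a2, a chain of type VI collagen, in 4 and 7.

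Members stood close to the threshold. Exactly 3 rule genes were present in 29 wild-type members (of 48) and 66 knock-in members (of 100), and 4 or more in 19 and 34. Just outside it, 42 wild-type and 90 knock-in cells held exactly 2 rule genes and passed the exclusion. The summed level of the 8 rule genes, with a level written throughout as values of the gene per 10000 of all values in the same cells, was 25.02 in wild-type and 23.3 in knock-in fibroblasts, against 0.298 and 0.535 in all other cells.

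**Figure D1:**
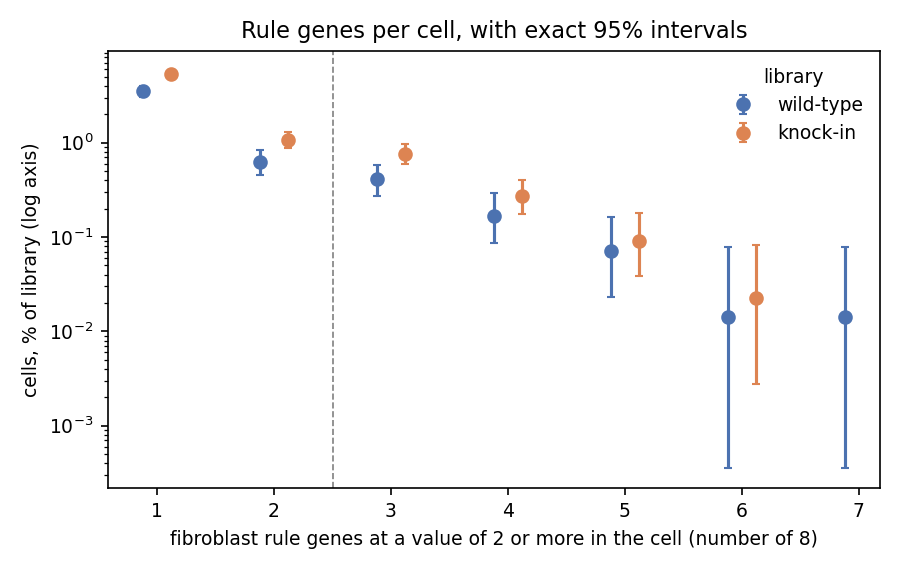
Share of each library's cells (percent, log axis) by the number of the 8 rule genes at 2 or more, with exact Clopper-Pearson 95% intervals. The dashed line marks the rule, which 48 wild-type and 100 knock-in cells passed, and counts of 0 have no point on a log axis.

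Fibroblast genes that the rule did not use were read beside the label. Of 25 further fibroblast markers, 13 met the limits used below for a measurable gene, and 12 of these 13 were at least 2-fold higher in the fibroblasts than in the other cells of both libraries. The background was large: 17.1% of all 2487 measurable genes met that fold. The limits were set on levels in the fibroblasts themselves, so markers low in them dropped out. The same holds for the later counts of list genes over other cells. The receptor gene Pdgfra, a usual marker of fibroblasts, had a level of 2.42 in wild-type and 2.27 in knock-in fibroblasts and of 0.182 and 0.247 in other cells. Pcolce, an enhancer of procollagen cleavage, was at 1.73 and 1.92 against 0.0366 and 0.0594 in other cells, and Tbx18, a transcription factor of mural and meningeal cells, was at 1.86 and 1.43 against 0.0170 and 0.0291. These values did not go against the label, but they are a description and no independent check of it.

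Markers of other cell types were low against their own cells, with exceptions that touch the results below. The summed level of 8 endothelial markers was 1.54 in wild-type and 2.92 in knock-in fibroblasts, against 59.5 and 55.3 in endothelial cells. Of the 10 mural markers, summing to 7.11 and 9.24, nearly all was Vtn, the adhesion protein vitronectin, and Rgs5, Higd1b and Acta2 were at 0 in both libraries. The 8 choroid plexus epithelial markers summed to 4.82 and 4.37, against 1416 and 1570 in that epithelium. The 8 microglial markers summed to 1.49 and 3.93, and 1 knock-in fibroblast reached 133, a level seen in microglia. The 8 neuronal markers summed to 13.8 and 10.2, against 49.4 and 45.8 in neurons, and 12 of 48 and 32 of 100 fibroblasts held 3 or more of them at 2 or more. The doublet caller Scrublet marked 0 wild-type and 3 knock-in fibroblasts. Their part in the results was not tested beyond the recounts given in the closing section.

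The rule took in 0.677% of all wild-type cells, with an exact 95% interval from 0.499 to 0.896%. Among all knock-in cells the fibroblasts numbered 1.13%, with an interval from 0.922 to 1.38%. The intervals do not overlap, but they cover counting error only. Without the cells that held markers of another class, 33 wild-type cells (0.465%, 0.320 to 0.653%) and 59 knock-in cells (0.668%, 0.509 to 0.861%) were left, a difference of 0.203 percentage points, and the intervals overlap. They also overlap without the cells called by Scrublet, with an upper bound of 0.896% in wild-type and a lower bound of 0.891% in knock-in cells. The share of meninges that stayed on each hippocampus at dissection is not recorded, and 1 library per genotype gives no spread for it. With at least 4 rule genes the difference between the libraries shrank from 0.455 to 0.117 percentage points, with overlapping intervals, and with at least 2 it was 0.882. The median total of the deposited values was 7769.5 per wild-type fibroblast and 7853 per knock-in fibroblast, and the median number of genes above 0 was 2552 and 2651. In all other cells the median totals were 8648.5 and 9636, and the median numbers of genes 3138 and 3755. Exactly 1 rule gene stood at 2 or more in 3.50% of all wild-type and 5.32% of all knock-in cells. The part of this in the difference in share was not tested. Mitochondrially encoded transcripts made up a median of 0.233% and 0.430% of a fibroblast's values and cytosolic ribosomal protein transcripts 0.226% and 0.317%. None of the 28 barcodes found in both libraries belonged to a fibroblast.

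The genes highest in the fibroblasts against all other cells pooled included basement membrane, transport and secreted factor genes that the rule did not use, and they were shared by both libraries. Among genes at a level of 5 or more in fibroblasts of both libraries, the 20 with the highest ratio to other cells, taken as the lower of both libraries, were Lama1, Adamts12, Bmp6, Slc6a13, Slc7a11, Slc6a20a, Itih5, Ranbp3l, Cped1, Colec12, Gm8189, Gm26719, Tmtc4, Arhgap29, Vtn, Dcn, Adam12, Eya2, Cemip and Bicc1. Their order is a description, because cells chosen on 8 genes differ from the rest by construction. Most of the other cells held 3 or more neuronal markers, 4638 of 7046 wild-type and 5916 of 8736 knock-in cells. A high ratio to them therefore does not make a gene particular to fibroblasts among the border cells. Vtn is itself a mural marker, and Slc6a20a was also found in mural cells, as given below. Lama1, the alpha 1 chain of the laminin of pial basement membrane, stood at 11.3 in wild-type and 9.81 in knock-in fibroblasts against 0.0867 and 0.126 in other cells. Adamts12, a secreted metalloprotease, was at 16.3 and 10.7 against 0.167 and 0.180. Slc7a11, the cystine and glutamate exchanger, was at 30.2 and 29.3 against 0.533 and 0.759.

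Sequences upstream of the start of a rule gene and of a leading gene outside the rule are shown because both are among the genes that define these cells. They were read from RefSeq's table of promoters (GRCm38.p6), and run 5′ to 3′ along the gene for the 250 bases before its annotated start. The Col1a2 window is chr6:4505368-4505617 on the plus strand and the Slc7a11 window is chr3:50443614-50443863 on the minus strand. Capitals mark matches to CCAAT, the core of the CCAAT box, on either strand (ATTGG on the reverse) and to TGTTTAC, a forkhead core (GTAAACA on the reverse).
Col1a2: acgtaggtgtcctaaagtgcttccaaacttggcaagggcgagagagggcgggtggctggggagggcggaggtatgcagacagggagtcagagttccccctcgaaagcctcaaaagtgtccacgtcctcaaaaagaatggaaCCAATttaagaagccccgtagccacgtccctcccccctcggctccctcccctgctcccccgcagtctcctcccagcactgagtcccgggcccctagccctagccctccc
Slc7a11: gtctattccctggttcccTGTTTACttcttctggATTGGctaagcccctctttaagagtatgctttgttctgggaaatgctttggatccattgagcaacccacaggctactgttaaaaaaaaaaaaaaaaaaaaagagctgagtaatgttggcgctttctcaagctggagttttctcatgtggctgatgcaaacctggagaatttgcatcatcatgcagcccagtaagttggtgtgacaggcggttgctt
Of 26 genes sought (the rule genes and the leading genes), 16 had an entry, with 24 windows. CCAAT was found in 7 of the 24 windows, 29.2%, against 33.8% of all 32851 windows, and TGTTTAC in 1 of 24, that of Slc7a11, against 3.17% of all windows. TATAAA, the core of the TATA box, was found in 3 of 24 windows, those of Cemip, Col3a1 and Vtn, against 12.4% of all windows. The motifs do not overlap one another in the windows shown. None of these shares set the fibroblast genes apart, and a match is not a bound site.

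**Figure D2:**
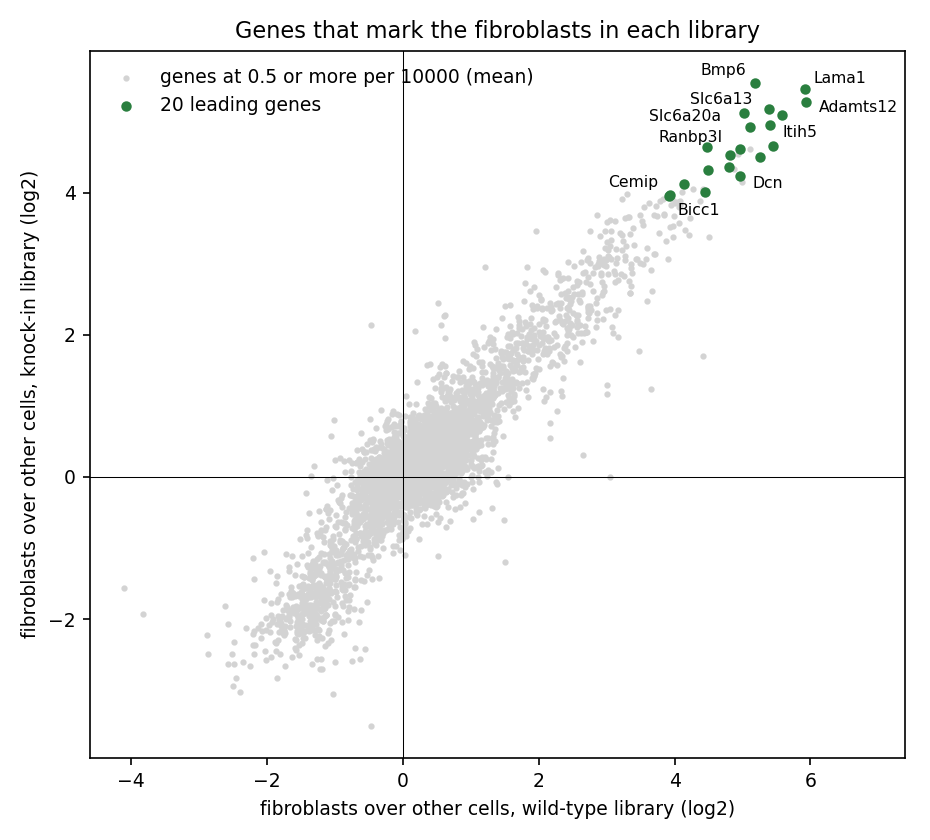
Log2 ratio of each gene's level in fibroblasts to all other cells of the same library, wild-type on the horizontal and knock-in on the vertical axis (0.1 added to both levels). Each grey point is a gene at a mean level of 0.5 or more per 10000, and the green points are the 20 leading genes among those at 5 or more in both libraries. Some grey points among the green ones are genes below that level.

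No measurable collagen or laminin gene passed the rule of size between the libraries. Of all measurable genes 1.49% passed as higher and 2.69% as lower. The absence of any among so few genes thus does not set these lists apart. In the elastic fibre and glycoprotein list 3 genes passed the rule, and they are described further on. None of the 4 fibrillar collagen genes that met the limits passed that rule, which is set out below: Col1a2 had a level of 4.50 in wild-type and 3.86 in knock-in fibroblasts, Col1a1 of 3.57 and 2.68, Col3a1 of 1.81 and 1.23, and Col5a2, a chain that nucleates fibrils, of 1.54 and 1.30. Col1a2, Col1a1 and Col3a1 are rule genes that chose the members in both libraries. Their ratios, and the list's median below, are therefore a description. All 7 measurable genes among the other collagens were over 2-fold higher than in other cells in both libraries, beside 17.1% of all measurable genes. Among them were the transmembrane collagen Col23a1 at 5.14 and 4.64, the basement membrane chains Col4a5 at 4.13 and 3.79 and Col4a6 at 2.77 and 2.62, and Col26a1 at 3.25 and 3.59. Col8a1, a short-chain collagen, was at 2.40 and 1.62. Of the basement membrane laminins, Lama2 stood at 10.3 and 9.19, Lamc1 at 4.34 and 3.11, and Lamc3 at 1.84 and 1.53, and none of the 7 measurable laminin and nidogen genes passed the rule. The median log2 ratio of knock-in over wild-type fibroblasts was -0.23 for the fibrillar collagens, -0.11 for the other collagens and 0.00 for laminins and nidogens, beside -0.03 for all 7083 genes at the same minimum level. The small leucine-rich proteoglycans, of which Dcn, at 6.82 and 5.62, and Lum, at 1.07 and 0.6004, were measurable, had a median of -0.52, and neither of these passed the rule. Dcn and Lum are rule genes as well, so these values are also a description.

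Solute carriers, which move small molecules across membranes, were well represented. Of 37 genes listed, 16 met the limits. Of these, 12 were over 2-fold higher than in other cells in both libraries, beside 17.1% of all measurable genes. Slc1a3, a glutamate transporter best known from astrocytes, was at 12.6 in wild-type and 14.4 in knock-in fibroblasts, and Slc38a2, a neutral amino acid transporter, at 4.10 and 4.72. The sulfate transporter Slc13a4 was at 3.62 and 2.84, the dicarboxylate transporter Slc13a3 at 2.13 and 2.72, and the organic anion transporter Slc22a8 at 2.26 and 2.40. Slc6a20a, an imino acid transporter, was at 10.5 and 16.6. It was also found in mural cells, at 12.2 and 8.08, so that it does not separate fibroblasts from these. In the list, 0 genes were higher and 1 was lower by the rule, beside 1.49% and 2.69% of all measurable genes. The lower gene was Slc7a14, a gene of neurons that stood lower in fibroblasts than in other cells.

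Transcription factors of meninges and mesenchyme were found in the fibroblasts of both libraries. Of 18 measurable genes, 17 were over 2-fold higher than in other cells of both libraries, beside 17.1% of all measurable genes. Between the libraries 0 of the 18 passed the rule, beside 1.49% of all measurable genes as higher and 2.69% as lower. With so few genes this does not set the list apart. The median log2 ratio of the 27 genes at the list minimum was 0.08. Foxp1 was at 19.2 in wild-type and 20.7 in knock-in fibroblasts, Eya1 at 8.97 and 9.03, Eya2 at 5.38 and 5.89, Nr2f2 at 5.17 and 4.89, and Ebf1 at 4.45 and 3.32. The zinc finger genes Zic1, at 2.66 and 2.56, and Zic4, at 2.29 and 2.18, and the forkhead gene Foxd1, at 2.08 and 2.54, mark meningeal mesenchyme. Bnc2, a zinc finger gene of mesenchymal cells, was at 2.58 and 4.74. Foxp2 was at 3.65 and 4.13 and Bicc1, an RNA-binding protein placed in this list, at 14.2 and 15.9.

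Genes of the layers of the meninges were mixed in these cells. A list of pial and perivascular genes summed to 54.1 in wild-type and 52.6 in knock-in fibroblasts, against 1.82 and 2.24 in other cells, and most of it was Slc7a11. A list of arachnoid genes summed to 18.5 in both libraries, with Tjp1, a tight junction protein, at 8.17 and 6.49, Slc13a4 at the levels above and Aldh1a2 at 3.49 and 3.75. Of its 4 measurable genes 1 was higher by the rule, Ppp1r1a, at 0.559 and 1.26, beside 1.49% of all measurable genes. A list of dural genes summed to 23.6 and 23.1, most of it Foxp1. Of its 2 measurable genes 1 was lower, Mgp, described below, beside 2.69% of all measurable genes. A list of choroid plexus stroma genes had no measurable member and summed to 1.25 and 1.29. Aldh1a2 makes retinoic acid from retinaldehyde. Of 17 retinoic acid genes, 3 were measurable and none passed the rule set out below, beside 1.49% and 2.69% of all measurable genes. The receptor gene Rarb was at 1.94 and 2.61.

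Between the libraries, genes were read by a rule of size, since no test was possible: a log2 ratio of at least 1 in either direction with 0.1 added to both levels, a level of at least 1 per 10000 in 1 library, and a value above 0 in at least 10% of that library's fibroblasts. Of 2487 genes that met the limits, 37 (1.49%) were higher and 67 (2.69%) lower in knock-in fibroblasts. In all other cells, 7046 and 8736 in number, 4 genes were higher and 2 lower of 2070. In 2 border cell types with fewer cells, more genes passed: 103 higher and 99 lower of 2572 in 29 and 43 endothelial cells, and 117 and 120 of 2344 in 24 and 43 mural cells. In 97 and 84 choroid plexus epithelial cells, 42 were higher and 77 lower of 2123. The counts in fibroblasts were thus below those of the other border cell types, which were not read on the same number of cells. Of the 67 lower genes, 28 had over 25% of their wild-type sum in 1 cell, and 31 were lower in fibroblasts than in other cells of both libraries. Of the 37 higher genes, 6 had over 25% of their knock-in sum in 1 cell, 3 were lower in fibroblasts than in other cells, and 11 were at least 2-fold above other cells in both libraries. Scaling both libraries to the same median over these genes, a shift of -0.11 on the log2 scale, gave 57 higher and 45 lower genes in place of 37 and 67.

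Ptgds, which encodes the lipocalin-type prostaglandin D synthase secreted into cerebrospinal fluid, was higher in knock-in fibroblasts. It lies on chromosome 2 at 25466709 to 25470046 (GRCm38). Over single wild-type fibroblasts its value ran from 0 to 162 with a median of 12.5, and over knock-in fibroblasts from 0 to 1345 with a median of 32.5. The cells overlap widely, with quartiles of 3 and 34.8 in wild-type and of 9 and 96.8 in knock-in fibroblasts. The pooled level was 34.4 and 99.98, a log2 ratio of 1.54, and 1.64 after scaling to the same median. At least 2 was reached in 41 of 48 and 97 of 100 fibroblasts, and, with every fibroblast drawn down at random to 4000, in 72.9% and 92%. Its highest wild-type cell gave 12.5% of that library's sum, and its highest knock-in cell gave 16.5%. Ptgds was also higher in the rest of the knock-in library: all other cells had a level of 3.61 and 6.57, a log2 ratio of 0.85, and 23.0% and 46.0% of the cells with 3 or more neuronal markers reached 2. It was at 4.73 and 12.7 in endothelial, 3.87 and 7.14 in mural and 9.18 and 14.5 in choroid plexus epithelial cells. How far Ptgds transcripts free in the suspension entered these values was not tested.

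Bmp6, a secreted bone morphogenetic protein, lies on chromosome 13 at 38345107 to 38500302. Its value ran from 0 to 67 over wild-type fibroblasts with a median of 7, and from 0 to 102 over knock-in fibroblasts with a median of 18.5. The pooled level was 14.5 and 31.5, a log2 ratio of 1.12. At least 2 was reached in 33 of 48 and 81 of 100 fibroblasts (66.7% and 75% after thinning), against 2.07% and 2.79% of cells with neuronal markers. The ratio was short of the rule in 4 settings, at 0.85 without the cells that held markers of another class, 0.88 with at least 4 rule genes, 0.90 with rule genes counted at 3 or more and 0.96 without subcluster 5, described below, a setting added after seeing the data. Bmp7 and Bmp5, other ligands of the family, were at 1.12 and 2.06 and at 1.04 and 1.99, on the same side but short of the rule. Among 41 genes of growth factors, their receptors and inhibitors, 16 were measurable, 1 was higher (Bmp6) and 0 lower. The shares of all measurable genes were 1.49% and 2.69%, and the median log2 ratio of the 23 listed genes at the list minimum was 0.50. The receptor genes Fgfr2, at 29.2 and 29.4, Fgfr1, at 3.81 and 3.79, and Tgfbr3, at 6.39 and 8.76, and the ligand genes Ptn, at 15.8 and 19, Pdgfd, at 4.34 and 3.93, and Wnt4, at 2.45 and 2.23, did not pass.

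Eln, which encodes the elastin of elastic fibres, was at a level of 0.692 in wild-type and 2.99 in knock-in fibroblasts, a log2 ratio of 1.96. Its median value was 0 in both libraries, since 37 of 48 and 71 of 100 fibroblasts had none, and its highest value was 5 in wild-type and 40 in knock-in fibroblasts. At least 2 was reached in 6 wild-type fibroblasts (12.5%, exact 95% interval 4.73 to 25.3%) and 22 knock-in fibroblasts (22%, 14.3 to 31.4%), and these intervals overlap. Endothelial cells also held it, at 3.09 and 8.23. The higher level thus came from a minority of cells with large values. In members with exactly 3 rule genes Eln was at 0.431 and 0.756, a log2 ratio of 0.69. In members with 4 or more it was at 1.11 and 7.42, a ratio of 2.63. Of the 9 measurable elastic fibre and glycoprotein genes, 1 was higher and 2 were lower, beside 1.49% and 2.69% of all measurable genes. Sparc, which binds collagen, was at 2.58 and 2.27 and Efemp1, a fibulin, at 1.97 and 2.11.

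The 2 lower genes of that group drew much of their wild-type sum from 1 cell. Mgp, a matrix Gla protein that limits calcification, was at 3.14 and 0.747, but 87.3% of the wild-type sum came from 1 fibroblast at a value of 103. Without each library's highest cell its log2 ratio turned from -1.94 to 0.56. Fn1, the fibronectin gene, was at 1.33 and 0.282, and 50% of the wild-type sum was in 1 cell. Without each library's highest cell its log2 ratio went from -1.91 to -1.31 and it no longer met the limits of the rule. Lgals1, a secreted galectin and the lower gene of largest ratio, was at 1.78 and 0.282 with 53.7% of the wild-type sum in 1 cell and a log2 ratio of -2.30 that became -1.42 and was likewise outside the limits without the highest cells.

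Igf1, a growth factor made by meningeal and other mesenchymal cells, was at 0.266 and 1.35, a log2 ratio of 1.98. It reached 2 in 4 of 48 and 19 of 100 fibroblasts, and the exact intervals, 2.32 to 19.98% and 11.8 to 28.1%, overlap. Of the 6 measurable genes of the insulin-like growth factor system it alone passed, where 1.49% of all measurable genes were higher. Its receptor gene Igf1r was at 4.87 and 5.44, the insulin receptor gene Insr at 2.56 and 2.13, and the binding protein gene Igfbp2, among the genes higher in fibroblasts than in other cells, at 3.30 and 4.24.

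**Figure D3:**
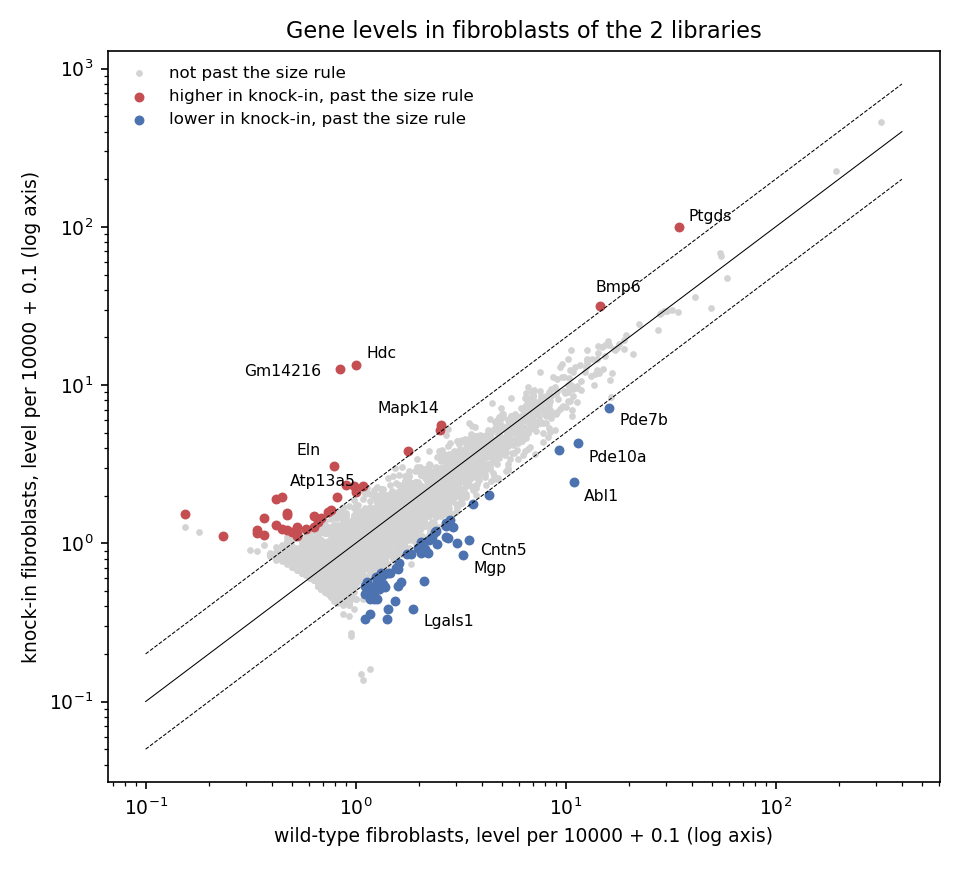
Level of each gene per 10000 plus 0.1 (both axes log) in wild-type (horizontal) and knock-in (vertical) fibroblasts. The solid line is equality and the dashed lines a 2-fold difference, with the 37 higher genes in red and the 67 lower in blue, and most points past the dashed lines lie at low levels.

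Other genes higher in knock-in fibroblasts by the largest ratios were less evenly held. Gm28928, a noncoding RNA that was lower in fibroblasts than in other cells, was at 0.0532 and 1.43, with 59.8% of the knock-in sum in 1 cell. C1qa, a complement gene of microglia, was at 0.133 and 1.02, with 43.4% in 1 cell, and it stands beside the higher microglial marker sum given above. Rps15a, a ribosomal protein gene, was at 0.240 and 1.12 with 45.1% in 1 cell. Nnat, an imprinted gene inside an intron of Blcap on the opposite strand, was at 0.319 and 1.80, and Blcap itself at 2.45 and 5.53. How reads of this overlapping pair were assigned to each gene was not checked. Atp13a5, a transporter gene at 36.3 and 28.6 in mural cells, was at 0.346 and 1.88, with 61.5% of the wild-type sum in 1 cell. Its log2 ratio of 2.15 was short of the rule at 0.84 with rule genes counted at 3 or more and at 0.38 with at least 4. Gm28048 was at 0.240 and 1.07.

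Cntn5, a GPI-anchored contactin, was at 3.38 and 0.943 in fibroblasts and 5 and 5.50 in other cells, with 48.8% of the wild-type sum in 1 cell. Nrg2, Stxbp6, Dach1, Fstl4 and Slit1 completed the 10 lower genes of largest ratio with Lgals1, Abl1, Mgp, Fn1 and Cntn5. The neuronal marker sum was 13.8 and 10.2, as given above. Of the 5 measurable neuronal markers 0 passed the rule, beside 1.49% of all measurable genes as higher and 2.69% as lower. Without subcluster 1, described below, which is led by genes known from neurons, 74 genes were higher and 79 lower, among them 28 of the 37 higher and 30 of the 67 lower genes. Among genes at higher levels, the phosphodiesterase genes Pde7b, at 16.03 and 7.02, and Pde10a, at 11.3 and 4.18, were lower by the rule. Their median values were 6.5 and 4, and 2.5 and 1, so that the cells of the libraries overlap. Cells with exactly 2 rule genes did not show this, with Pde7b at 6.84 and 6.08 and Pde10a at 3.16 and 5.15.

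Of 8 measurable genes listed for a difference seen earlier across these libraries, 4 were higher and 2 lower by the rule in fibroblasts. Gm14216, a long noncoding RNA, was at a level of 0.745 in wild-type and 12.5 in knock-in fibroblasts and reached 2 in 1 of 48 and 100 of 100. Hdc, which encodes histidine decarboxylase, the enzyme that makes histamine, was at 0.905 and 13.4 and reached 2 in 4 and 99. Its lowest, median and highest values were 0, 1 and 2 in wild-type and 1, 11 and 23 in knock-in fibroblasts, so that the libraries hardly overlap. Abl1, a tyrosine kinase that links Eph receptors to the actin skeleton, was at 10.9 and 2.34, with values of 1, 7 and 21 against 0, 1 and 13. In other cells Hdc was at 0.414 and 8.62 and Abl1 at 8.98 and 1.28, so none of this is particular to fibroblasts. Sec22b, a vesicle trafficking gene, was at 16.4 and 8.31, a log2 ratio of -0.97, just short of the rule, and Mapk14, a stress-activated kinase, at 2.42 and 5.13. The list was made from earlier results of the same libraries, so its count is no independent evidence.

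**Figure D4:**
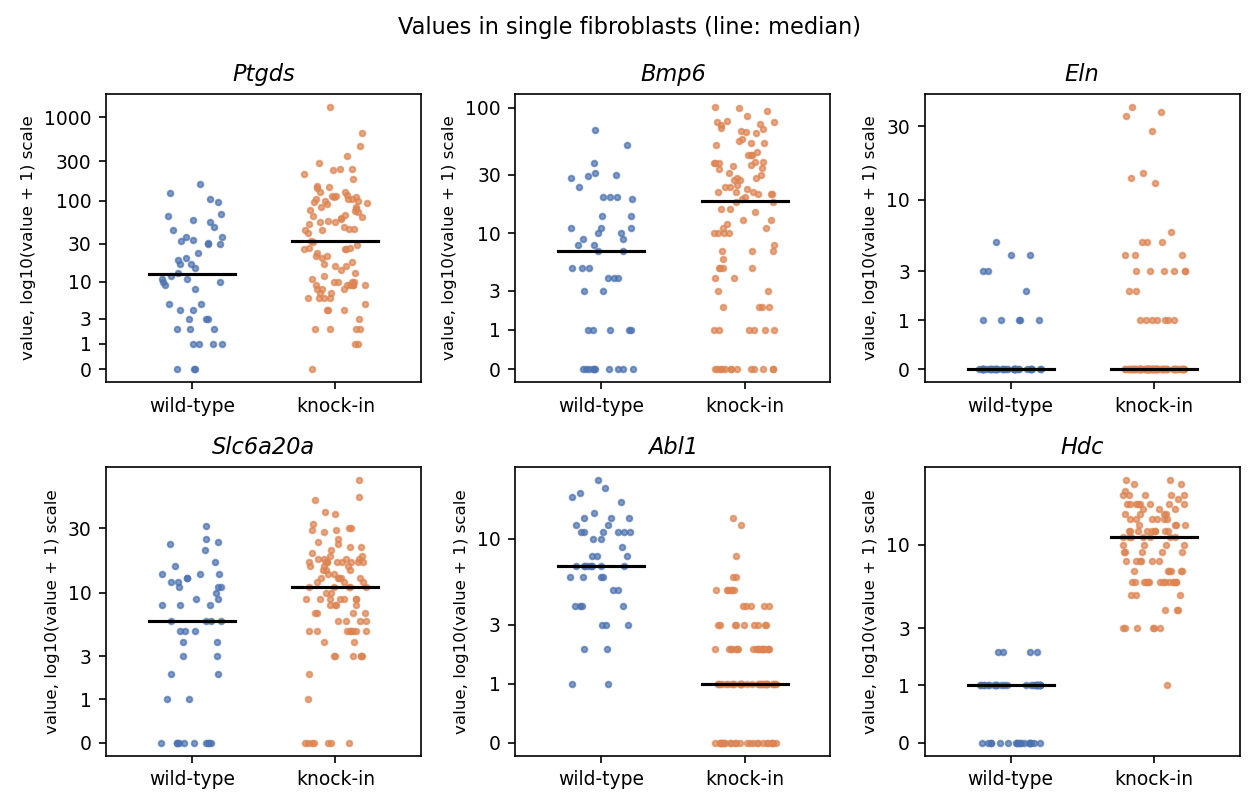
Values in single fibroblasts, 48 wild-type and 100 knock-in, for 6 genes on a log10(value + 1) scale, with 1 point per cell and a line at the median. Ptgds, Bmp6 and Slc6a20a overlap widely between the libraries, Eln is carried by few cells, and Abl1 and Hdc separate most cells.

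Few genes of GPI anchor synthesis, the process in which Pigv acts, met the limits. Pigv itself was at 0.266 and 0.282, which says nothing of the allele, since an edited codon need not change the transcript level. Of 29 genes of anchor synthesis and transfer, 1 met the limits: Pigk, a subunit of the transamidase that attaches the anchor, at 2.37 and 2.21. The list summed to 7.80 and 7.85. Of 68 genes of GPI-anchored proteins, 33 were at the list minimum, with a median log2 ratio of -0.22. Of the 68 genes, 18 were measurable, 0 were higher and 2 lower, Cntn5 and Ntng1, against 2.69% of all measurable genes. Both were short of the rule without the cells that held markers of another class. Lsamp, an adhesion protein of neurons, was at 49.2 and 30.7 and lower than in other cells, and Gpc6, a glypican above its level in other cells, at 10.1 and 14.5. Of 9 measurable Eph, ephrin and Abl genes, 1 was lower, Abl1, against 2.69% of all measurable genes. Epha7, at 6.63 and 5.12, Epha4, at 2.34 and 1.80, and Efna5, a GPI-anchored ephrin, at 2.26 and 1.91, did not pass.

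Cells just outside the rule gave the same comparison in cells it had not taken, though from the same libraries. In the 42 wild-type and 90 knock-in cells with exactly 2 rule genes, Ptgds was at 28.4 and 76.9, a log2 ratio of 1.44, and Bmp6 at 11.1 and 21.99, a ratio of 0.98. Eln was at 1.39 and 2.13, a ratio of 0.58, so its difference was smaller there. Mgp was at 0.782 and 3.66, on the side opposite to the members. Hdc was at 0.695 and 13.3 and Abl1 at 12.5 and 1.91. These cells also held the leading genes, with Slc7a11 at 29.8 and 19.5, Lama1 at 7.42 and 5.04 and Adamts12 at 16.1 and 7.36, above the levels of other cells.

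The fibroblasts varied among themselves in Trpm3, a cation channel gene, which was singled out after its values were seen. Its level was 194 in wild-type and 224 in knock-in fibroblasts, against 13.5 and 14.8 in other cells, but the first quartile over cells was 2 in both libraries and the medians were 107 and 155. In all, 51 of 148 fibroblasts stood below 10, 19 of 48 wild-type and 32 of 100 knock-in. The cells below 10 had Dcn at 9.44 and 9.03, and those at 10 or more at 5.12 and 4.02. Slc6a13 went the other way, at 3.803 and 5.395 in cells low in Trpm3 and 8.19 and 9.52 in the rest, as did Ptgds, at 8.62 and 44.7 and at 51.1 and 126. Members with little Trpm3 held more Dcn and less Slc6a13 and Ptgds in both libraries. Dcn and Slc6a13 are rule genes, and a member low in 1 of them had to pass on others. Their opposite sides are therefore a description. Eln differed between the libraries mainly in the cells low in Trpm3, at 0.679 and 7.19, against 0.701 and 1.01 in the rest.

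Clustering of the 148 cells without the rule genes gave 6 subclusters, which are numbered by size and described by their leading genes, since these chose them. Subcluster 1 (43 cells) was led by Adarb2, Cntnap5a, Cntn5, Ctnna2, Negr1 and Dscam, genes known from neurons, and its neuronal marker sum was 17.4. Subcluster 2 (27 cells) was led by Atp13a5, Aifm3, Blcap, Prdm6, Ppp1r1a and Nnat, with Blcap at 16.5 against 1.84 in the other fibroblasts, and none of its cells had Trpm3 below 10. Subcluster 3 (25 cells) was led by Eln, F3, Col8a1, Adamts6, Samd5 and Lama1, with Eln at 9.20 against 0.894 and Lama1 at 27.3 against 6.90, and 20 of its 25 cells had Trpm3 below 10. Subcluster 4 (24 cells) was led by Alms1, Gpcpd1, Aldh1a2, Airn, Apcdd1 and Pde7b, with Aldh1a2 at 7.87 against 2.89. Subcluster 5 (23 cells) was led by Rps16, Tpt1, RPS10-NUDT3, Rps15a, Rpl23 and Tmsb4x, of which the Rps and Rpl genes encode ribosomal proteins, and its microglial marker sum was 11.4. Subcluster 6 held 6 cells, and all 6 had Trpm3 below 10. It was led by Adamtsl3, at 17.8 against 0.0351, Slc47a1, an organic cation exchanger, at 16.1 against 0.0614, Afap1l1, Slc47a2, Gm6260 and Alpl. Of its 6 cells, Alpl reached 2 in 5, Slc47a1 in 3 and each of the other leading genes in 2, so most of these levels came from few cells.

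The type lists differed among subclusters. Pial and perivascular genes summed to 79.2 in subcluster 4 and 68.6 in subcluster 3, and to 33.3 in subcluster 2 and 32.8 in subcluster 6. Arachnoid genes summed to 29.5 in subcluster 6, 27.0 in subcluster 4 and 23.4 in subcluster 2, and to 12.3 in subcluster 5. Dural genes summed to 49.0 in subcluster 6 and to between 15.4 and 26.4 in the others. These sums hold leading genes of the subclusters themselves. In subcluster 6, Adamtsl3, at 17.8, is in the pial and perivascular sum and Slc47a1, at 16.1, in the arachnoid sum. Lama1 in subcluster 3, Ppp1r1a in subcluster 2 and Aldh1a2 in subcluster 4 are further cases. No subcluster was given the name of a meningeal layer, since the lists rest on few measured genes. By library, subcluster 5 held 6.25% of wild-type fibroblasts (exact 95% interval 1.31 to 17.2%) and 20% of knock-in fibroblasts (12.7 to 29.2%). Subcluster 1 held 35.4% (22.2 to 50.5%) and 26% (17.7 to 35.7%), and all 6 pairs of intervals overlap.

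**Figure D5:**
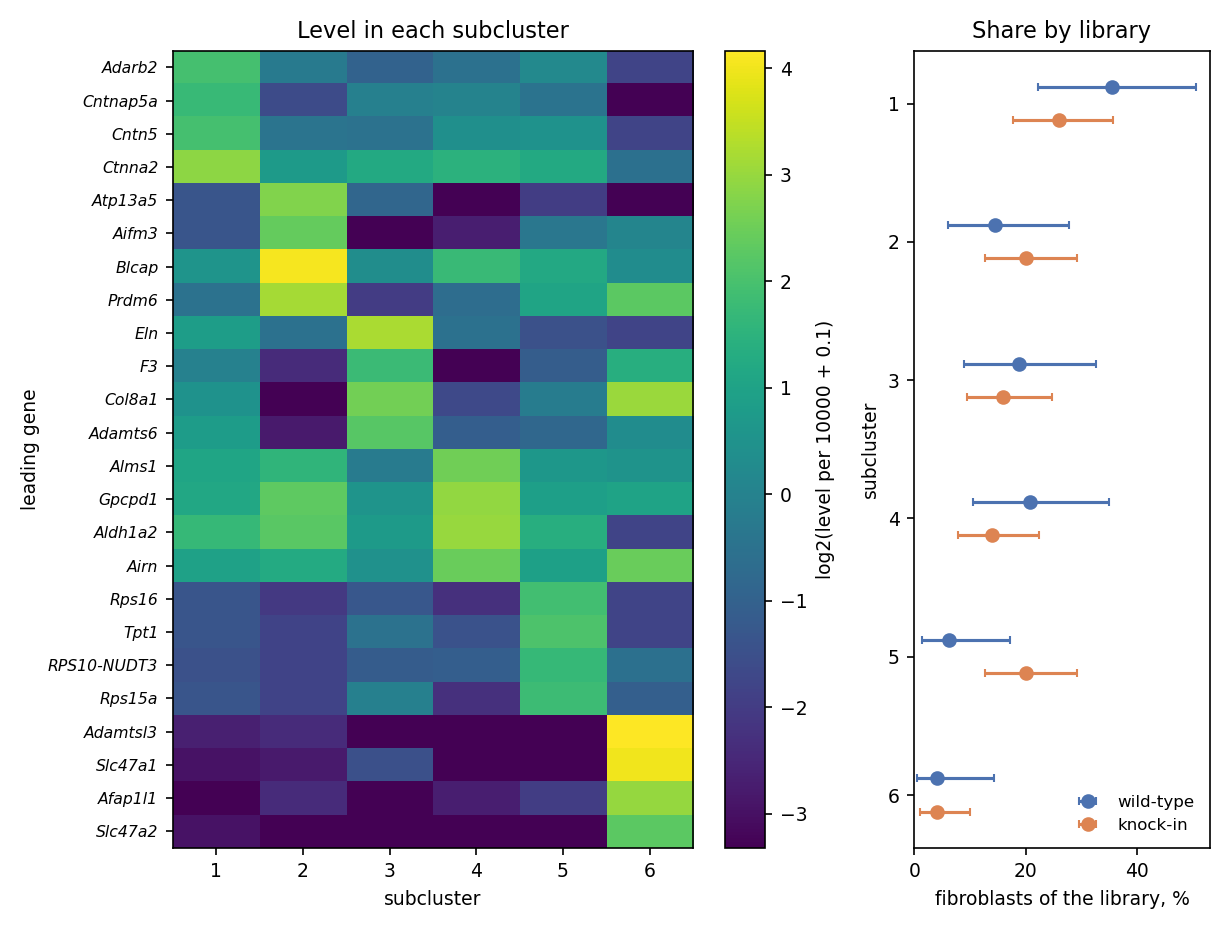
Left, log2 of the level per 10000 plus 0.1 of the first 4 leading genes of each of the 6 subclusters. Right, share of each library's fibroblasts in each subcluster (percent) with exact 95% intervals, which overlap between the libraries in all 6.

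Within subclusters the differences between the libraries were read side by side, with few cells in each. Ptgds was higher in the knock-in fibroblasts of all 6: at 20.5 and 51.2 in subcluster 1, 109 and 178 in subcluster 2, 12.9 and 71.9 in subcluster 3, 38.6 and 81.5 in subcluster 4, 9.27 and 138 in subcluster 5 (3 and 20 cells), and 1.85 and 4.999 in subcluster 6 (2 and 4 cells). Bmp6 was also on the higher side in all 6, with 16.1 and 26.8 in subcluster 1 and 19.9 and 50.8 in subcluster 4. Eln was at 0.841 in 9 wild-type and 13.96 in 16 knock-in cells of subcluster 3, and at 0.888 and 2.25 in subcluster 1. It was on the other side in subcluster 5, at 0.976 and 0.175, and in subcluster 6, at 0.618 and 0. Atp13a5 was at 0.719 and 8.52 in subcluster 2 and on the other side in subcluster 3, at 1.12 and 0.0798. In the 3 wild-type cells of subcluster 5 Mgp was at 50.3, which is the single cell named above.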

How the data were processed

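Transcripts of single hippocampal cells were measured with the Chromium v3 chemistry of 10x Genomics in 1 wild-type and 1 knock-in library, each pooled from 4 mice. The values the authors deposited, for 30223 gene symbols in 15930 cells, are a score: whole numbers that, going by the table's own name and the narrow band of totals per cell, the authors had corrected for depth before deposit. Depth is therefore unknown, and no count model, Poisson interval or test was used. Seurat 3.0.0 and the build GRCm38 are named in the submitters' processing notes, and the aligner, the cell filter and any removal of doublets are not given in the sources used here.

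The fibroblast rule was applied to the values as deposited. No doublets were removed. Scrublet called 158 wild-type and 230 knock-in cells at an expected rate of 6%. Levels are pooled sums per 10000, and a fold is on the scale of log2(level + 0.1). Intervals are exact Clopper-Pearson 95% intervals for counting error only. For thinned shares each cell was drawn down to a total of 4000, which left out 0 cells. Subclusters were made with scanpy 1.11.5 under Python 3.11.15: 500 variable genes without the rule genes, 10 components, 10 neighbours, Leiden resolution 0.6. Endothelial, mural and choroid plexus epithelial cells were those with 3 or more of their markers at 2 or more. Gene positions are from GENCODE on GRCm38. How often genes with no difference between the libraries pass the size rule in cells such as these was not tested.

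The members, the 39 gene lists and the rules were chosen with earlier results of these data known. The genes named were the rule genes, the recurrent genes, up to 8 genes of a list at 2 or more per 10000 with any past the size rule, the 10 higher and 10 lower genes of largest ratio, the 20 leading genes over other cells at 5 or more, and up to 6 leading genes of a subcluster. List members outside that rule, Trpm3 and the genes set beside it were named after their values were seen. Listed genes with no row in the table were not analysed here, and the values of 2 genes are not reported.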

Additional observations from a re-analysis of the deposited data

How the results depend on the processing

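No paired analysis was possible because each genotype is 1 library; no library could be left out. The share difference of 0.455 percentage points became 0.117 with at least 4 rule genes, 0.882 with at least 2 and 0.203 without cells holding markers of another class, and the knock-in share was the higher in 6 of 6 settings. The 37 higher genes became 159 with at least 4 rule genes, 22 with at least 2, 96 without cells holding markers of another class, 17 with 0.5 added to both levels, 11 at a minimum level of 2, 438 with no minimum level, 64 with values of 1 set to 0 and 57 with both libraries at the same median. Chosen after seeing the data, leaving out the subcluster led by genes of neurons gave 74. The 67 lower genes became 156 with at least 4 rule genes, 11 with at least 2, 20 with 0.5 added, 24 at a minimum level of 2, 222 with none, 102 with values of 1 set to 0 and, also chosen after seeing the data, 24 without each gene's highest cell. Without cells holding markers of another class 94 were lower. These counts are not all of the same genes: with at least 4 rule genes, at least 2, and without cells holding markers of another class, 19, 18 and 24 of the 37 higher genes and 26, 9 and 29 of the 67 lower genes were past the rule in the same direction. In all 16 settings besides the main one, 4 genes stayed past the rule as higher (Ptgds, Eln, Hdc and Gm14216) and 1 as lower (Abl1). Members with exactly 3 rule genes were not among these settings, and in them Eln was short of the rule at 0.69. The 6 subclusters became 2 at resolution 0.3 and 7 at resolution 1. Of the 103 genes past the rule whose own values are reported, 17 changed sign in some setting, and the cause was not tested. Their log2 ratios there were as follows. With at least 4 rule genes, Rpl13a was -0.29, Blcap -0.52, Rpl10 0.20, Dpp10 0.70, Ntng1 0.13, Tecpr2 1.07, Rpl8 0.45, Sema5a 0.0025, Cers6 0.35 and Rps15 0.056. With at least 2 rule genes, Mgp was 0.078. With rule genes counted at 3 or more, Blcap was -0.032 and Tmem108 0.18. Without cells holding markers of another class, Mgp was 0.47, Rpl10 1.51, Rpl19 0.87, Tecpr2 1.56, Rpl8 2.53, Rps27a 0.72 and Rps15 0.68. Without the subcluster led by genes of neurons, Fn1 was 0.45, Erbb4 0.41, Rpl10 0.43, Rpl19 0.029, Dpp10 0.85, Tecpr2 1.03, Rpl8 1.24, Rps15 0.84 and Clu 0.87. Without the ribosome-rich subcluster, Mgp was 0.91. Without each gene's highest cell, Mgp was 0.56 and Clu 0.054.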
